A study of Mus musculus with 8 samples.

Results

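The set described here consists of 40 cell cycle and mitosis genes, measured by RNA-Seq in primary chondrocytes of mouse articular cartilage after exposure to IL-1β, a proinflammatory cytokine, or to vehicle. Its members were listed by gene symbol and found as the rows of the deposited count table with exactly these names, and all 40 were present among the 54658 symbols of the table. They fall into 13 DNA replication genes, 24 mitosis genes and 3 regulators of the transition from G1 to S phase. The cells were isolated from the femoral heads of wild-type mice aged 3 weeks, were grown in high-glucose DMEM with fetal bovine serum, and received IL-1β (1 ng/mL) or vehicle for 24 h, with 4 samples in each group. The labels do not say whether the samples of a group were separate cultures or animals, so the p-values measure the spread between these samples only.

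A dividing cell passes through G1, S, G2 and M phase. In G1, the licensing factors CDC6 and CDT1 load the MCM helicase, a ring of MCM2 to MCM7, onto replication origins. Cyclin E with CDK2 and the E2F transcription factors then carry the cell into S phase, in which the DNA polymerases, held on DNA by the PCNA clamp, copy the genome. Genes for these steps are classical targets of E2F factors. The genes for mitosis are transcribed later, in G2, largely through FOXM1 and B-MYB. Their promoters often hold an element called the cell cycle genes homology region (CHR) and CCAAT boxes. Chondrocytes of adult articular cartilage rarely divide, whereas chondrocytes of young animals do divide when cultured in serum.

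Total counts were 10992355 to 17104351 in the IL-1β samples and 13970959 to 17456063 in the vehicle samples. Levels are given as CPM, the number of reads of a gene relative to all reads of its sample, scaled by TMM, a factor that corrects for differences in RNA composition and that lay between 0.984 and 1.01 here. All 40 genes were among the 14404 that passed a filter of CPM above 1 in at least 4 samples. A gene is called lower or higher where edgeR's quasi-likelihood test gave a Benjamini-Hochberg adjusted p-value under 0.05 over all genes tested. The 10 chondrocyte markers examined were detected in every sample and all 10 were lower with IL-1β, with a summed level of 4227 to 4639 CPM against 16200 to 16820 CPM. Of the markers of other cells, those of macrophages and leukocytes summed to 30.64 to 34.47 CPM with IL-1β against 15.18 to 18.11 CPM with vehicle. Of these 10, *Cd68* and *Cd14* were higher, *Lyz2* was lower, 7 did not pass the filter, and *Adgre1*, *Tyrobp* and *Itgam* had at most 3 reads in any sample. The endothelial markers summed to 43.07 to 50.42 CPM against 43.56 to 45.43 CPM, nearly all of it from *Eng*, and *Cdh5*, *Emcn* and *Tie1* had at most 3 reads in any sample. The erythroid markers summed to 1.892 to 2.236 CPM against 1.052 to 2.077 CPM, with *Hbb-bt* at 0 throughout. Fibroblast and perichondrial markers summed to 146.3 to 160.9 CPM against 144.8 to 151.4 CPM, with 1 gene, *Pdgfra*, called and higher. The part of these cell type markers in the results below was not tested. In bulk samples, fewer cells of a type or phase and less RNA per cell cannot be told apart.

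With IL-1β, 8 of the 40 genes were lower, 1 was higher and 31 were not called. Among all genes tested, 19.8% were lower and 20.4% were higher, so the share of the set that was lower (1 in 5) lay at the level of all genes, while the share that was higher (2.5%) was below it. The lower genes were the helicase genes *Mcm2*, *Mcm4*, *Mcm5* and *Mcm6* and the mitosis genes *Ube2c*, *Kif20a*, *Tpx2* and *Mki67*. The higher gene was *Cdt1*. No member passed a 2-fold change, which 5.2% of all genes tested did. Log2 fold changes of the members ran from -0.36 for *Ube2c* to 0.31 for *Ccne1*, and 34 of 40 (85.0%) were below zero, against 50.3% of all genes tested. The median log2 fold change was -0.139 for the set and -0.0012 for all genes tested. In 6 members the 4 IL-1β samples and the 4 vehicle samples did not overlap, 5 of them lower (*Mcm2*, *Mcm4*, *Mcm6*, *Ube2c* and *Mki67*) and 1 higher (*Cdt1*). Groups did not overlap in 36.8% of all genes tested.

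**Figure D1:**
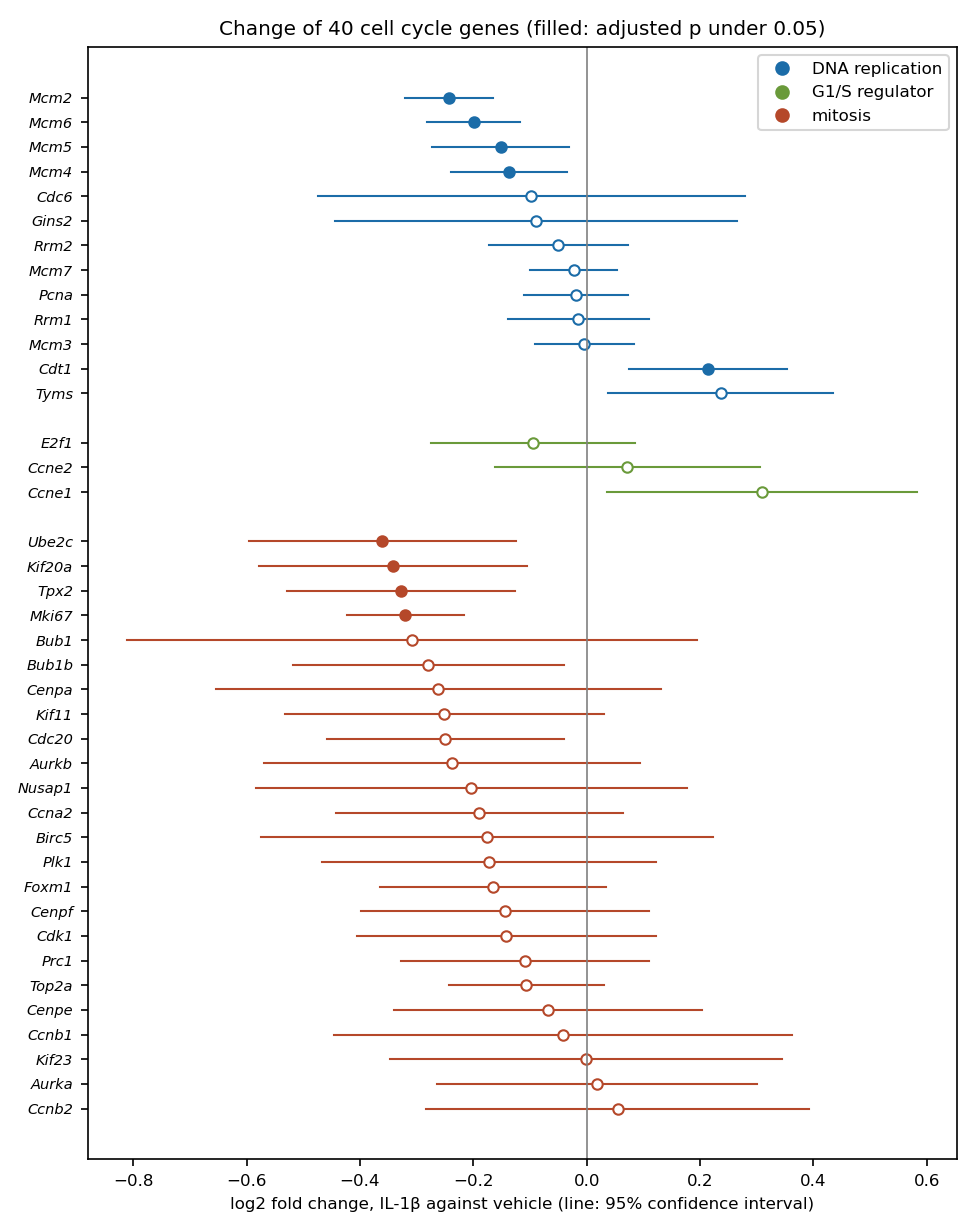
Log2 fold change (x axis, IL-1β against vehicle) of each of the 40 genes (y axis), with 95% confidence intervals as lines and filled points for an adjusted p-value under 0.05. Most points lie left of zero, 9 are filled, and the intervals of the mitosis genes are wider than those of the replication genes.

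Of the 6 subunits of the MCM helicase, 4 fell with IL-1β and 2 were not called. Among all genes tested 19.8% were lower, and among those between 10 and 100 CPM, where all 6 lie, 22.5%. *Mcm2* had 68.3, 69.67, 72.82 and 72.55 CPM in IL-1β samples 1 to 4 and 85.09, 84.0, 85.51 and 81.36 CPM in vehicle samples 1 to 4. Every IL-1β sample lay below every vehicle sample. The gene fell by 15.5% (log2 fold change -0.24, SE 0.04, edgeR adjusted p = 5.213e-06). *Mcm6* had 53.16, 55.53, 52.45 and 54.25 CPM with IL-1β against 61.15, 60.84, 61.19 and 64.08 CPM with vehicle. Its groups did not overlap either, and it fell by 12.9% (log2 fold change -0.20, SE 0.04, edgeR adjusted p = 0.0001727). Both calls held with any 1 of the 8 samples left out.

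*Mcm4* and *Mcm5* had smaller differences. *Mcm4* had 31.09, 31.23, 33.32 and 30.0 CPM with IL-1β against 33.92, 35.76, 34.02 and 34.7 CPM with vehicle, so that its groups were apart by less than 1 CPM. It fell by 9.06% (log2 fold change -0.14, edgeR adjusted p = 0.02978). *Mcm5* had 23.43, 22.86, 25.36 and 25.67 CPM with IL-1β against 28.09, 25.65, 28.45 and 26.35 CPM with vehicle, and IL-1β sample 4 reached vehicle sample 2. It fell by 9.99% (log2 fold change -0.15, edgeR adjusted p = 0.04072). These 2 calls depended on single samples. *Mcm4* was called in 3 of the 8 fits that left out 1 sample, with adjusted p-values up to 0.11 (without IL-1β sample 4), and also lost its call without IL-1β sample 1 (0.0559) or 2 (0.0629), or vehicle sample 2 (0.0908) or 4 (0.0564). *Mcm5* was called in 4 of the 8, with adjusted p-values up to 0.142 (without IL-1β sample 2), and lost its call without IL-1β sample 1 (0.0943), or vehicle sample 1 (0.11) or 3 (0.104). Neither was called by DESeq2 (adjusted p = 0.0981 and 0.107).

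*Mcm3* and *Mcm7*, which code for the other two subunits of the ring, were not called. *Mcm3* averaged 53.93 ± 3.03 CPM with IL-1β against 54.29 ± 0.353 CPM with vehicle (SD, n = 4), and *Mcm7* averaged 77.98 ± 2.46 and 79.32 ± 1.53 CPM. Their 95% confidence intervals, -0.09 to 0.08 for *Mcm3* and -0.10 to 0.05 for *Mcm7* on the log2 scale, exclude the estimates for *Mcm2* and *Mcm6*, although the difference between the genes was not tested. Levels per kilobase of exon allow the subunits to be compared with each other, except that 12.6% of the exon bases of *Mcm7* also lie in other genes (*Ap4m1* and *Cops6* on the opposite strand, *Mir25* and *Mir93* on the same strand) and may hold their reads. Of the summed level of the 6 genes in CPM per kilobase, *Mcm2* made up 14.9% ± 0.336 with IL-1β and 16.3% ± 0.396 with vehicle, and *Mcm6* 16.8% ± 0.588 and 17.9% ± 0.38. *Mcm3* made up 21.0% ± 0.623 and 19.5% ± 0.166, and *Mcm7* 25.7% ± 0.438 and 24.2% ± 0.409. For these 4 genes the groups did not overlap, whereas the shares of *Mcm4* and *Mcm5* overlapped. The 6 shares add up to the whole, so the lower shares of some subunits raise those of the others. In CPM per kilobase, *Mcm3* had 14.4 with IL-1β against 14.5 with vehicle, and *Mcm7* 17.6 against 17.9. The shares were compared without a test, because all 6 come from the same reads as the calls above.

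The promoters of a helicase gene that fell and of one that was not called are printed to show the letters around their starts. Sequences are from RefSeq on GRCm38.p6, run 5′ to 3′ on the strand of the gene, and cover the 250 bases before its start and the first 50 from it. The *Mcm6* window is chr1:128359656-128359955 on the minus strand and that of *Mcm7* is chr5:138171834-138172133 on the minus strand. In GENCODE vM21 the outermost start of *Mcm6* is at 128359664 and that of *Mcm7* at 138172422, so the *Mcm7* window lies within the gene there. Capitals mark each match to TTTNNCGC, a form of the E2F motif, on either strand.
Mcm6: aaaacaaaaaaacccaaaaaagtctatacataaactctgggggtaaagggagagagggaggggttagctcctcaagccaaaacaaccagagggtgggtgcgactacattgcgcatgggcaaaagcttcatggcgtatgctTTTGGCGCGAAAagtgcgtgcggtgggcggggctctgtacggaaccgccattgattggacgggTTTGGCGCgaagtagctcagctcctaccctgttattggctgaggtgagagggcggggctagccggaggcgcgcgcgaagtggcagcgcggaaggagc
Mcm7: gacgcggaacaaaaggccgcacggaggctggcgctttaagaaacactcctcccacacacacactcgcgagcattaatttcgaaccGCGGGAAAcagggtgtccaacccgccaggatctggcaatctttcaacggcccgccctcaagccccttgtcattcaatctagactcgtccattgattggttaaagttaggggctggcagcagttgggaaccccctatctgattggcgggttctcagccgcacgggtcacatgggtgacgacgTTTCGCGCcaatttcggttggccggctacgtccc

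Both windows hold E2F matches, 3 in *Mcm6*, of which 2 overlap each other, and 2 in *Mcm7*. CCAAT boxes occur in both as well, 2 in *Mcm6* and 3 in *Mcm7*, and the last of those in *Mcm7* shares 1 base with an E2F match. The gene that fell and the gene that was not called thus hold the same 2 motifs in these windows.

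Among the licensing factors, *Cdt1*, which with CDC6 loads the helicase, rose. It had 18.29, 18.89, 19.72 and 19.22 CPM in IL-1β samples 1 to 4 and 16.33, 16.93, 15.55 and 16.89 CPM in vehicle samples 1 to 4. No IL-1β sample was as low as any vehicle sample. The log2 fold change was 0.21 (SE 0.07, edgeR adjusted p = 0.01237), a difference of 16.0%, and the call held with any 1 sample left out (largest adjusted p = 0.0442). *Cdc6* averaged 2.164 ± 0.341 CPM with IL-1β against 2.33 ± 0.154 CPM with vehicle, and *Gins2*, a subunit of the GINS part of the active helicase, averaged 2.929 ± 0.488 and 3.142 ± 0.548 CPM. Neither was called, and their intervals reached from -0.47 to 0.28 and from -0.44 to 0.27 on the log2 scale. Of the exon bases of *Gins2*, 67.3% also lie in exons of *Gse1* on the opposite strand. Whether the counting used strand is not stated in the sources used here, so reads of these overlapping genes may not have been told apart.

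None of the 4 genes of DNA synthesis and nucleotide supply was called. *Pcna* averaged 67.16 ± 3.3 CPM with IL-1β against 68.2 ± 3.71 CPM with vehicle. *Rrm1* and *Rrm2*, the subunits of ribonucleotide reductase, averaged 28.95 ± 2.78 against 29.49 ± 1.35 CPM and 24.39 ± 1.42 against 25.37 ± 1.24 CPM. The 95% confidence intervals of these 3 genes lay between -0.17 and 0.11 on the log2 scale. *Tyms*, which codes for thymidylate synthase, had 11.62, 11.47, 10.16 and 11.13 CPM with IL-1β against 9.461, 9.706, 7.987 and 10.25 CPM with vehicle. Only IL-1β sample 3 and vehicle sample 4 overlapped. Its log2 fold change of 0.24 (SE 0.10) missed the threshold (edgeR adjusted p = 0.05326), and passed it without IL-1β sample 3 (0.0366) or vehicle sample 4 (0.0344), in a range of up to 0.191 over the samples left out.

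**Figure D2:**
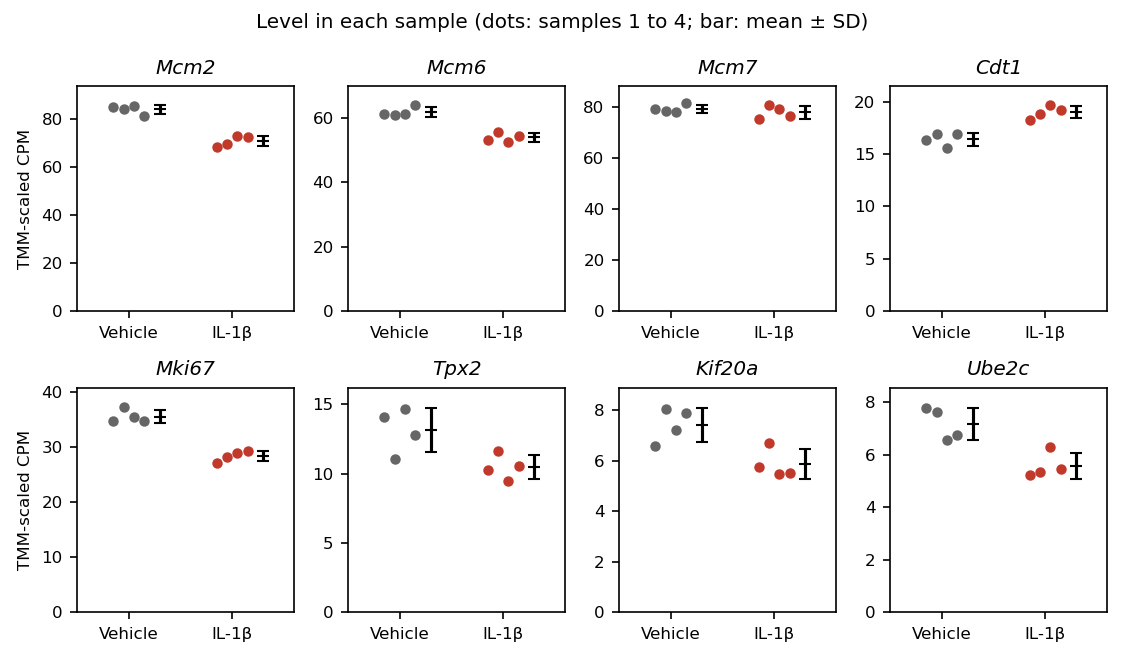
TMM-scaled CPM (y axes, from 0) of 8 genes in the 4 vehicle and 4 IL-1β samples (dots), with mean ± SD (bars). *Mcm2*, *Mcm6*, *Mki67* and *Ube2c* lie lower and *Cdt1* higher in every IL-1β sample than in any vehicle sample, *Tpx2* and *Kif20a* are lower with some overlap, and *Mcm7* overlaps.

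Of the regulators of the G1/S transition, none was called. *Ccne1*, an E-type cyclin and partner of CDK2, had 4.145, 5.625, 5.524 and 5.177 CPM with IL-1β against 3.807, 4.102, 4.707 and 4.14 CPM with vehicle. IL-1β sample 1 lay among the vehicle samples and the other 3 lay above them. The log2 fold change of 0.31 (SE 0.13) was the highest in the set and missed the threshold (edgeR adjusted p = 0.06668), which it passed without IL-1β sample 1 (0.0241) and missed in the other 7 such fits (up to 0.171). *Ccne2* averaged 6.943 ± 0.818 and 6.558 ± 0.397 CPM, and the transcription factor gene *E2f1* averaged 10.51 ± 0.377 and 11.23 ± 0.436 CPM, with overlapping groups in both. Of the exon bases of *Ccne2*, 17.4% also lie in *Ints8* on the opposite strand.

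Of the 24 mitosis genes, 4 fell (16.7%, against 19.8% of all genes tested), none rose (against 20.4%) and 20 were not called. At an unadjusted p-value under 0.05 from edgeR, 6 were lower and 0 higher, while 6713 of all 14404 genes tested passed it in either direction. DESeq2 also called 0 mitosis genes higher. *Mki67*, which codes for the proliferation marker Ki-67, a protein that coats mitotic chromosomes, had 27.12, 28.2, 28.93 and 29.22 CPM in IL-1β samples 1 to 4 and 34.67, 37.21, 35.3 and 34.7 CPM in vehicle samples 1 to 4. The groups were separated by more than 5 CPM. *Mki67* fell by 19.9% (log2 fold change -0.32, SE 0.05, edgeR adjusted p = 6.402e-06) and was called with any 1 sample left out. *Top2a*, the DNA topoisomerase that untangles chromosomes before they separate, was the next most abundant mitosis gene by CPM, at 20.6 ± 1.11 CPM with IL-1β against 22.11 ± 1.64 CPM with vehicle, and was not called (95% confidence interval -0.24 to 0.03).

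The other 3 calls were in genes of protein degradation and the spindle. *Ube2c*, the ubiquitin-conjugating enzyme of the anaphase-promoting complex, had 5.226, 5.337, 6.296 and 5.461 CPM with IL-1β against 7.788, 7.626, 6.561 and 6.769 CPM with vehicle. The groups did not overlap, with the nearest samples 6.296 and 6.561 CPM. *Ube2c* fell by 22.1% (log2 fold change -0.36, SE 0.11, edgeR adjusted p = 0.01277) and was called with any 1 sample left out. Of its exon bases, 22.8% also lie in *Tnnc2* on the opposite strand.

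*Tpx2*, a spindle assembly factor that activates Aurora A, had 10.27, 11.61, 9.503 and 10.57 CPM with IL-1β against 14.08, 11.09, 14.69 and 12.82 CPM with vehicle. IL-1β sample 2 lay above vehicle sample 2, and the others did not overlap. It fell by 20.3% (log2 fold change -0.33, SE 0.10, edgeR adjusted p = 0.008042), a call that held with any 1 sample left out. *Kif20a*, a kinesin of cytokinesis, had 5.767, 6.707, 5.464 and 5.532 CPM with IL-1β against 6.577, 8.03, 7.203 and 7.886 CPM with vehicle, with IL-1β sample 2 above vehicle sample 1. It fell by 21.1% (log2 fold change -0.34, SE 0.12, edgeR adjusted p = 0.01843). This call was lost without IL-1β sample 3 (adjusted p = 0.0681), vehicle sample 2 (0.0618) or vehicle sample 4 (0.0536), and by DESeq2 (0.051). Exons of *Cdc23* on the opposite strand cover 29.3% of its exon bases in GENCODE vM21. That annotation gives it 4338 exon bases, while the deposited length is 3796, so the share of the counted bases may differ.

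The 7 other kinase, checkpoint and anaphase genes were not called. The closest were *Cdc20*, the activator of the anaphase-promoting complex, and *Bub1b*, which codes for the checkpoint protein BubR1. *Cdc20* averaged 9.241 ± 1.36 CPM with IL-1β against 11.01 ± 0.541 CPM with vehicle (log2 fold change -0.25, edgeR adjusted p = 0.05248). *Bub1b* averaged 6.163 ± 0.339 and 7.509 ± 0.988 CPM (log2 fold change -0.28, edgeR adjusted p = 0.05693). *Cdc20* passed the threshold without IL-1β sample 2 (0.0356) or 4 (0.0179), and *Bub1b* without vehicle sample 2 (0.0186), while other fits with 1 sample left out gave up to 0.213 and 0.192. Log2 fold changes of the other 5 were -0.31 for the checkpoint kinase gene *Bub1*, -0.24 for *Aurkb* and -0.18 for *Birc5*, both of the chromosomal passenger complex, -0.17 for the Polo-like kinase gene *Plk1* and 0.02 for the spindle pole kinase gene *Aurka*. *Bub1* was the gene with the fewest reads, 17.5 per sample on average, and its interval reached from -0.81 to 0.20.

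The 5 genes that command entry into mitosis were not called either. *Cdk1*, the mitotic kinase, averaged 4.837 ± 0.348 CPM with IL-1β against 5.33 ± 0.693 CPM with vehicle (log2 fold change -0.14, interval -0.40 to 0.12). Its cyclins differed by -0.19 for *Ccna2*, -0.04 for *Ccnb1* and 0.05 for *Ccnb2*, and *Foxm1*, the forkhead factor of late cell cycle genes, by -0.16. Of the exon bases of *Ccna2*, 12.5% also lie in *Exosc9* on the opposite strand. *Ccnb1* had 1.442 CPM in IL-1β sample 1 while IL-1β samples 2 to 4 had 2.908 to 3.267 CPM, against 2.234 to 3.209 CPM with vehicle. The pseudogene *Ccnb2-ps* had 181 reads in all 8 samples, 52.2% of the 347 of *Ccnb2*, so that reads may have been divided between the 2.

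Of the 9 centromere, kinetochore, spindle and midzone genes, *Tpx2* and *Kif20a* fell, as given above (22.2%, against 19.8% of all genes tested). All 9 had log2 fold changes below zero, against 50.3% of all genes tested. The others were -0.26 for the centromeric histone gene *Cenpa*, -0.25 for the spindle motor gene *Kif11*, -0.20 for *Nusap1*, -0.14 and -0.07 for the kinetochore genes *Cenpf* and *Cenpe*, -0.11 for the midzone gene *Prc1* and -0.0012 for the midzone motor gene *Kif23*. Of these 7, none was called, and every interval included zero. Of the exon bases of *Prc1*, 11.1% also lie in *Rccd1* on the opposite strand.

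For the mitosis genes, the promoters of a gene that fell and of one that was not called are given in the same way. The *Mki67* window is chr7:135716330-135716629 on the minus strand and that of *Ccnb2* is chr9:70421505-70421804 on the minus strand, from RefSeq on GRCm38.p6. Capitals mark each match to TTTGAA, a core form of the CHR element, on either strand.
Mki67: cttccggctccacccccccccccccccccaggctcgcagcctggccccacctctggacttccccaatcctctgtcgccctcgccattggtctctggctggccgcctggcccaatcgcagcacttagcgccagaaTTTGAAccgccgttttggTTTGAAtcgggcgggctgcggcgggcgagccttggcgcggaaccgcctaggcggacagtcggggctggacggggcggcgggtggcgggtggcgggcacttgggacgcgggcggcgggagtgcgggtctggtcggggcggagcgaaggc
Ccnb2: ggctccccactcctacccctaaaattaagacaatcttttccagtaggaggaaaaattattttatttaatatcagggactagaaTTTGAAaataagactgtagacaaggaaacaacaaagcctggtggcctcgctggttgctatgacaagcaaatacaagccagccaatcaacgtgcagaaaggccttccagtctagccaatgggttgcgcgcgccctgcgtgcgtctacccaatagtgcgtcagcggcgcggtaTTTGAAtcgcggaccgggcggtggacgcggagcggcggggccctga

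Each of these windows holds 2 CHR matches and 3 CCAAT boxes. In *Mki67* the CHR matches begin at positions -116 and -98 relative to the start, while in *Ccnb2* they begin at positions -167 and 4.

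The same motifs were counted in all members with a window. RefSeq gave a promoter window for 32 of the 40 genes. In 25 of these, the last 40 bases lay in a GENCODE vM21 transcript of the gene. *Mcm4*, *Kif20a* and *Tpx2*, which fell, were among the genes without a window. TTTNNCGC was found in 7 of 11 replication genes (63.6%) and in 1 of 19 mitosis genes (5.26%, *Cdk1*), against 10.0% of the 9921 genes tested that have a window. TTTGAA was found in 1 of 11 replication genes (9.09%, *Mcm2*) and in 14 of 19 mitosis genes (73.7%), against 14.1%. CCAAT was found in 8 of 11 (72.7%) and 17 of 19 (89.5%), against 42.9%. Over all 27025 windows of the table the shares were 5.93%, 20.2% and 41.1%. Both strands were searched, and the windows of *Ccne1* and *E2f1* held none of the 3 motifs. Of the 7 replication genes with TTTNNCGC, *Mcm5* and *Mcm6* fell, *Cdt1* rose, and *Mcm3*, *Mcm7*, *Cdc6* and *Tyms* were not called. Of the 14 mitosis genes with TTTGAA, *Mki67* and *Ube2c* fell and 12 were not called. Among all genes tested, 19.8% were lower and 20.4% higher, and these groups are too small to set against those shares. A match describes the letters of a window and does not show that a factor was bound there.

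**Figure D3:**
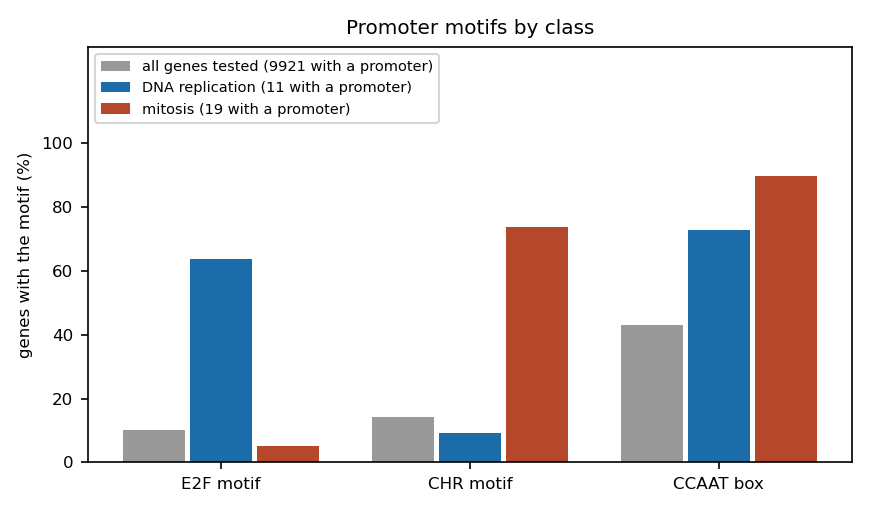
Share of genes (y axis, percent) whose promoter window holds an E2F motif, a CHR motif or a CCAAT box, for all genes tested (grey), the DNA replication genes (blue) and the mitosis genes (red). The E2F motif is most frequent in the replication genes (63.6%) and the CHR motif in the mitosis genes (73.7%).

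The replication genes were next set against the mitosis genes. By the fit for single genes, 4 of 13 replication genes were lower (30.8%) and 1 higher (7.69%), with a median log2 fold change of -0.0499. Of the 24 mitosis genes, 4 were lower (16.7%) and none higher, with a median of -0.183. Among all genes tested, 19.8% were lower and 20.4% higher. Values below zero were found for 11 of 13 replication genes (84.6%) and 22 of 24 mitosis genes (91.7%), against 50.3% of all genes tested. The medians differed by 0.133. Leaving out 1 sample at a time moved that difference between 0.107 and 0.195, the highest value being that without vehicle sample 2. No test was made of the difference, since the members were chosen with results of these data known.

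The same comparison was made per sample. The mean log2 CPM of the 24 mitosis genes, taken relative to the vehicle mean, was -0.241, -0.142, -0.139 and -0.245 in IL-1β samples 1 to 4, and 0.0523, -0.0135, -0.0286 and -0.0102 in vehicle samples 1 to 4. The groups did not overlap. For the 13 replication genes it was -0.105, -0.0476, 0.00524 and -0.051 with IL-1β and 0.00428, -0.0144, 0.00843 and 0.00173 with vehicle, where IL-1β sample 3 lay among the vehicle samples. The gap between the mean log2 CPM of replication and mitosis genes was 2.241 ± 0.0412 with IL-1β and 2.099 ± 0.0357 with vehicle (SD, n = 4), without overlap.

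**Figure D4:**
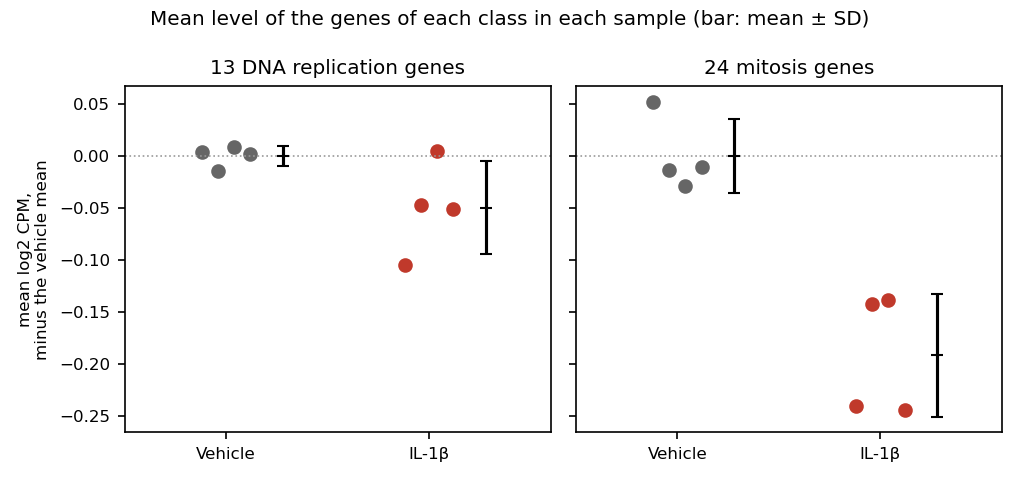
Mean log2 CPM of the 13 DNA replication genes (left) and the 24 mitosis genes (right) in each sample (dots), minus the mean of the 4 vehicle samples (y axis), with mean ± SD (bars). The IL-1β samples lie between -0.245 and -0.139 for mitosis genes, below every vehicle sample, while 1 IL-1β sample lies among the vehicle samples for replication genes.

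In summed CPM, the groups were apart for both classes. The 24 mitosis genes together had 154.3 to 163.6 CPM with IL-1β against 180.9 to 188.5 CPM with vehicle, a difference in the means of -13.5%. Without *Mki67*, the most abundant of them by CPM, the difference was -12.0%, and without the 4 called genes it was -9.88%, with 105.9 to 111.8 CPM against 117.2 to 125.4 CPM. The groups did not overlap in any of these 3 sums. The 13 replication genes together had 453.2 to 483.7 CPM with IL-1β against 490.1 to 502.5 CPM with vehicle, a difference of -5.53%. Without their 5 called genes the difference was -1.06% and the groups overlapped. The mitosis sum was 33.92% ± 0.772 of the replication sum with IL-1β and 37.06% ± 1.09 with vehicle. The sums without called genes were formed after the calls were known and describe these samples only.

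The classes also differed in level, and with it in precision. Per kilobase of exon, *Pcna* had the highest vehicle level of the set at 28.4 CPM per kilobase, followed by *Mcm7* (17.9), *Mcm3* (14.5), *Mcm6* (13.2) and *Mcm2* (12.1). The highest mitosis gene on this scale was *Cdc20* (5.89), followed by *Mki67* (3.53), and the lowest gene of the set was *Bub1* (0.293). The median was 9.15 CPM per kilobase for replication genes and 1.39 for mitosis genes. A median of 440 reads per sample stood behind a replication gene and 80 behind a mitosis gene, which by counting error alone gives coefficients of variation of 4.77% and 11.2%. The median half-width of the 95% confidence interval of the log2 fold change was 0.121 for replication genes and 0.267 for mitosis genes. Differences below about this size were not detectable for most mitosis genes at this depth. A call rests on the adjusted p-value and took a larger difference. *Bub1b*, at -0.28 with an interval of -0.52 to -0.04, was not called (edgeR adjusted p = 0.05693).

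Genes of similar level give a closer background for the counts of calls. Under a mean of 10 CPM lay 24 members, 20 of them mitosis genes. Of these 24, 2 were lower (*Ube2c* and *Kif20a*) and 0 higher by edgeR (*Ccne1* alone was higher at an unadjusted p-value under 0.05), while 11.3% of the 5648 genes tested at this level were lower and 14.1% higher. Between 10 and 100 CPM lay 16 members, 11 of them replication genes. Of these 16, 6 were lower and 1 higher, while 22.5% of 7001 genes were lower and 24.2% higher. No member averaged over 100 CPM.

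**Figure D5:**
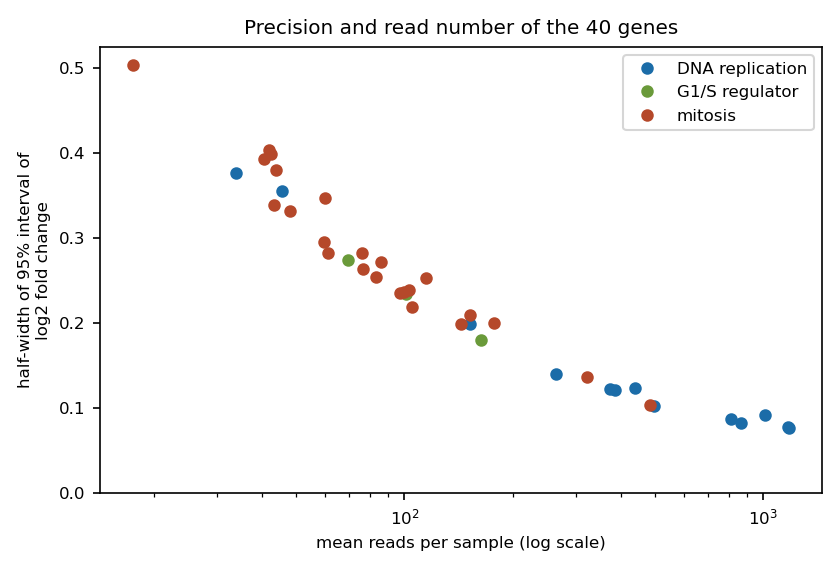
Half-width of the 95% confidence interval of the log2 fold change (y axis) against the mean number of reads per sample (x axis, log scale) for each of the 40 genes, coloured by class. The interval narrows with the number of reads, and most mitosis genes (red) lie at the left, with a median of 80 reads against 440 for replication genes (blue).

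Further genes of the same pathways were counted from lists made by function. Of 40 further DNA replication genes, 39 were tested, 6 were lower (15.4%) and 5 higher (12.8%). Among all genes tested the shares were 19.8% and 20.4%. The median level of the 39 was 6.96 CPM, and among all genes tested under 10 CPM, 11.3% were lower and 14.1% higher. The median log2 fold change was -0.0267. *Orc6*, a subunit of the origin recognition complex, fell by 0.58 on the log2 scale (edgeR adjusted p = 3.77e-05), from 11.49 ± 0.392 to 7.74 ± 1.18 CPM. The DNA primase gene *Prim1* fell by 0.41 and the clamp loader gene *Rfc4* by 0.38. Higher genes were *Dbf4*, the activator of the CDC7 kinase at origins (log2 fold change 0.38, edgeR adjusted p = 0.005646), and the single-strand binding gene *Rpa1* (0.14). The GINS gene *Gins4* also rose (0.18), close to the threshold (edgeR adjusted p = 0.04673). Of 52 further mitosis genes, 51 were tested, 7 were lower (13.7%) and 2 higher (3.92%). Both shares lay below those of all genes tested. The median level of the 51 was 4.1 CPM, and against genes under 10 CPM only the higher share lay below. Of the 51, 37 were below zero (72.5%, against 50.3% of all genes tested), and the median was -0.117. *Kifc1*, a spindle motor gene, fell by 0.50, and *Anln*, which codes for the cytokinesis protein anillin, fell by 0.44 (edgeR adjusted p = 1.915e-05). *Cks1b*, a subunit of cyclin-dependent kinases, fell by 0.15, close to the threshold (edgeR adjusted p = 0.04072). *Pttg1*, which codes for securin, rose by 0.34 (edgeR adjusted p = 0.007161). The 1 gene of this list past 2-fold was *Ttk*, a checkpoint kinase gene of low level named after its values were seen, at 0.8763 CPM with IL-1β against 1.776 CPM with vehicle (log2 fold change -1.02, edgeR adjusted p = 0.002318).

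Among genes that act upstream of S phase, some changes were larger than that of any member. Of 18 G1 cyclins, kinases and pocket protein genes, 5 were lower (27.8%) and 2 higher (11.1%), against 19.8% and 20.4% of all genes tested. All 3 D-type cyclins, which activate CDK4 and CDK6 in G1, fell. *Ccnd1* fell by 0.61 on the log2 scale, from 83.64 ± 3.05 to 54.59 ± 2.58 CPM (SD, n = 4, edgeR adjusted p = 8.13e-13), *Ccnd2* fell by 0.39, from 865.3 ± 14.5 to 659.3 ± 11.3 CPM, and *Ccnd3* fell by 0.21. *Cdk6* rose by 0.16 and the E2F partner gene *Tfdp2* by 0.14, the latter close to the threshold (edgeR adjusted p = 0.04063). Of 7 CDK inhibitor genes, 6 were tested, 3 were lower and 2 higher, a number too small to set against those shares, and of these *Cdkn1c* (lower, log2 fold change -1.14) and *Cdkn2c* (higher, 0.21) were named after their values were seen. *Cdkn1a*, which codes for p21, fell by 0.41, from 779.5 ± 10.3 to 587.4 ± 16.1 CPM (edgeR adjusted p = 2.427e-12), and *Cdkn1b*, which codes for p27, fell by 0.20. *Cdkn2b*, which codes for the CDK4 and CDK6 inhibitor p15, rose by 1.31, from 3.799 ± 0.458 to 9.318 ± 0.603 CPM (edgeR adjusted p = 2.697e-10). In each of these genes except *Cdkn2c* the IL-1β and vehicle samples did not overlap.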

How the data were processed

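RNA-Seq libraries of 4 IL-1β and 4 vehicle samples were used, grouped by the treatment in their labels. The authors trimmed reads with cutadapt, aligned them to mm10 (GENCODE vM20) with STAR and counted them with featureCounts. The deposited values are whole-number counts per gene symbol. Whether they precede the RUVseq batch correction named in the methods, and whether counting used strand, is not stated in the sources used here. The deposited gene lengths, in bases, were used only for levels per kilobase.

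Counts were normalized by TMM and tested with edgeR 4.0.16 (quasi-likelihood, treatment as the only term, R 4.3.3) over the 14404 genes with CPM above 1 in at least 4 samples, with Benjamini-Hochberg adjustment over all of them. A DESeq2 1.42.0 fit, other scalings, filters and a replicate block were alternatives. The code was tested on simulated data. At these depths 3 counts were 0.173 to 0.27 CPM, which covers counting error only. Positions and exon overlaps were from GENCODE vM21, in which the exon lengths of *Kif11* and *Kif20a* differ from the deposited lengths. Promoters were from RefSeq (GRCm38.p6), and the forms of the motifs were chosen after results were known.

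The members and gene lists were chosen with earlier results of these data known. All 40 members are named. From the other pathway lists, up to 3 called genes with the lowest and 3 with the highest fold change were named, provided that their groups were apart and that the higher one averaged at least 5 CPM. Over the genes tested, no 2 samples of a group agreed within sampling noise (chi-square per degree of freedom 1.98 to 6.35). None was therefore treated as a library deposited more than once. For the 40 members, the variance within a group divided by that of counting alone had a median of 0.888, and it exceeded 2 in 7 members. The spread of most members between samples was thus near counting error. The common biological coefficient of variation was 4.11%. None of these values shows whether the samples were independent cultures.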

Additional observations from a re-analysis of the deposited data

Results flagged for a closer look

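In 2 of the 82 groups of 4 samples examined, 1 sample stood apart from the other 3 by Dixon's test at the 95% level, where about 1 in 20 groups, or 4.1 of 82, would be flagged by chance. *Mcm6* had 64.08 CPM in vehicle sample 4 and 60.84 to 61.19 CPM in the other vehicle samples, and its call held without that sample. *Ccne2* had 7.153 CPM in vehicle sample 1 and 6.347 to 6.375 CPM in the other vehicle samples, and it was not called with or without that sample.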

How the results depend on the processing

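Of 599 values of single members under the alternatives, 574 kept their side of the threshold, 17 lost a call and 8 gained one. No called gene changed direction, while some genes near zero that were not called, such as *Mcm3*, *Rrm1* and *Ccnb1*, did. The number of members lower was 5 with DESeq2 in place of edgeR, against 8. Replication genes lower were 2 with DESeq2 and 2 with no filter on low counts, against 4, since *Mcm4* (adjusted p = 0.0578 without the filter) and *Mcm5* (0.0614) were not called there. The replicate numbers of the labels gave no sign of a pairing of samples, though such values cannot exclude one. Deviations of same-numbered samples correlated by r = -0.0699 to 0.0416 and those of other numbers by -0.085 to 0.0909. A replicate block gave 2 members higher and 2 replication genes higher, against 1, as *Tyms* passed the threshold (adjusted p = 0.0442). With 1 factor of unwanted variation *Cdc20* passed it (0.0465). Leaving out 1 sample at a time gave 6 to 8 members lower, 1 to 2 higher, 2 to 4 replication genes lower, 1 to 2 replication genes higher and 3 to 5 mitosis genes lower. The medians then ran from -0.0841 (without IL-1β sample 3) to -0.0125 (without IL-1β sample 4) for replication genes and from -0.235 (without vehicle sample 2) to -0.157 for mitosis genes, and their difference from 0.107 to 0.195 (without vehicle sample 2; 0.175 without vehicle sample 3). The cause of these shifts was not tested. Depth limits the precision for the mitosis genes, with a median of 80 reads per sample.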
